A study of Mus musculus with 12 samples.

Results

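The genes described here are a set of 9 named Sertoli cell maturation genes, Amh, Fshr, Sox9, Wt1, Inha, Inhbb, Clu, Rhox5 and Dhh, picked by symbol with earlier results of these data known. Gene identifiers were turned into symbols with the mm9 GENCODE M1 annotation, which gave 8 of the 9 among 37675 listed genes, and Rhox5 was not analysed here. Whole testes of C57BL/6NHsd mice were sequenced at postnatal day (PND) 7, 14, 17, 21 and 28, with 2 mice at each of the 5 ages and no treatment or transgene. The 12 libraries come from 10 mice, since both PND 7 mice were run with 2 barcodes each, and the counts of those were added up. The testis was not separated into cell types, so each value is an average over all cells of the organ.

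Sertoli cells are the somatic cells of the seminiferous tubule that hold and feed the germ cells. Before puberty they divide and secrete anti-Mullerian hormone. As they mature they stop dividing, join in tight junctions that form the blood-testis barrier and turn to the support of meiosis and spermatid formation, under the control of follicle-stimulating hormone (FSH) and androgen. Over the same weeks the first wave of germ cells enters and completes meiosis, so Sertoli cells become a smaller share of the testis. In such bulk samples fewer cells of a type and less RNA per cell cannot be told apart, which is why each gene is given both per library and relative to the others of the set.

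Counts on exons ranged from 3994026 to 13559548 per mouse with a median of 7103531. Summed CPM (counts per library total, on edgeR's TMM scale) of 5 spermatid markers were 0.601 and 0.00 at PND 7, 181 and 7.89 at PND 14, 8.44 and 8.71 at PND 17, 70.4 and 68.7 at PND 21, and 4971 and 5910 at PND 28. PND 14 mouse 1 therefore stood apart from PND 14 mouse 2 and from both PND 17 mice. The summed CPM of the 8 Sertoli cell genes was also higher in that mouse, 1651 against 821 in PND 14 mouse 2. Of these sums Clu alone gave 1153 and 441, while Wt1 was at 107 and 106. A list of 17 other Sertoli cell genes, described further on, summed to 3012 and 2963 in the same 2 mice. The summaries of the 8 genes for the steps into and out of PND 14 are given with and without it, and the part of the spermatid signal in those results was not tested. By the study's read counts, intronic reads made up a larger share in both PND 7 mice, PND 14 mouse 1 and PND 21 mouse 1 than in all others. The PND 7 and PND 28 mice thus differ in that share too, and its part in the results was not tested.

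Sequence upstream of the start site is shown for Fshr, Inhbb and Dhh, the genes of the set with a usable window in the sequences at hand. The 250 bases before the annotated start are from RefSeq on GRCm38.p6, which matched 4 of the 8 genes. The fourth was Inha, whose RefSeq window is in part transcribed sequence in GENCODE M1 and is not shown. They are written 5′ to 3′ on the strand of the gene, for Fshr chr17:89200676-89200925 on the minus strand, for Inhbb chr1:119422249-119422498 on the minus strand and for Dhh chr15:98898541-98898790 on the minus strand. Capitals mark matches on either strand to any of 5 motifs.
Fshr: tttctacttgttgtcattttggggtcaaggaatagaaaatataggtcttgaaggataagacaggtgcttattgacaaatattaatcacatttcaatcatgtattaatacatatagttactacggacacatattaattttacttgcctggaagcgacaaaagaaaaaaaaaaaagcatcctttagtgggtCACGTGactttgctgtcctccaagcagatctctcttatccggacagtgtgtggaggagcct
Inhbb: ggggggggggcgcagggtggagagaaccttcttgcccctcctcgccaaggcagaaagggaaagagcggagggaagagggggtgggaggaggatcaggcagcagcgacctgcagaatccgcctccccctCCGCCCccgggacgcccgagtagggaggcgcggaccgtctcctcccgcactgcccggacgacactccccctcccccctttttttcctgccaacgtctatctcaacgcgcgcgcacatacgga
Dhh: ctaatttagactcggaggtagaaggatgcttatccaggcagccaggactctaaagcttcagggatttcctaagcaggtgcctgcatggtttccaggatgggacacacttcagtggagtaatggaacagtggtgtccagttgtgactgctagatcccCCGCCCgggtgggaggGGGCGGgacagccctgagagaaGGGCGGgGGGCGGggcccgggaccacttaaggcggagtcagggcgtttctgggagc
The motifs were the E-box CACGTG, the GC box GGGCGG, the nuclear receptor half-site AGGTCA, the cyclic AMP response element TGACGTCA and the SOX site AACAAT, and no matches overlapped. The Fshr window held 1 E-box, starting 61 bases before the start site, and 6.02% of 32851 windows of this length held one. Inhbb held 1 GC box on the opposite strand and Dhh held 4, 3 of them on the strand shown and 1 on the other, against 32.7% of windows with at least one. Guanine and cytosine made up 36.8% of the bases in the Fshr window, 68.0% in that of Inhbb and 59.6% in that of Dhh. A match describes the letters only.

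All 8 genes were detected in every mouse. Their order by level per length at PND 7, in RPKM (reads divided by exon length and library total, mean of 2 mice), ran from Clu at 389 and Inha at 87.7 through Dhh at 33.7, Inhbb at 26.0, Wt1 at 22.9, Sox9 at 20.5 and Amh at 14.6 to Fshr at 9.24. At PND 28 it ran from Clu at 74.1 and Inha at 47.0 through Dhh at 7.61, Wt1 at 6.29, Inhbb at 5.23, Fshr at 1.98 and Sox9 at 1.92 to Amh at 0.855. Clu and Inha headed the order at every age. At PND 7 the mice of Amh overlapped with those of Sox9 and of Fshr, and Inhbb, Wt1 and Sox9 were barely apart. At PND 28 Fshr and Sox9 overlapped, and Amh stood below both.

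From PND 7 to PND 28, 7 of the 8 genes fell by at least 2-fold, with Amh and Sox9 falling most, and Inha, the inhibin alpha subunit, was the one that did not pass. A gene is called here when edgeR's quasi-likelihood test gave a Benjamini-Hochberg adjusted p under 0.05 over 16860 genes and a change of at least 2-fold. In this comparison 23.4% of all genes tested were called lower and 55.6% were called in either direction. The median log2 fold change of the 8 genes was -1.96, against 0.10 over all genes. Both PND 28 mice lay below both PND 7 mice in CPM for 8 of 8 genes, as they did for 37.4% of all genes tested. Over the 5 ages together 7 of the 8 genes differed (edgeR F test, adjusted p under 0.05, passed by 57.5% of all genes), and Inha had an adjusted p of 0.129. Inha passed that test too with library totals (adjusted p = 0.0168) and with no filter on low counts (0.00964). With single mice left out, whether Inha, Fshr and Clu passed depended on the mouse.

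**Figure D1:**
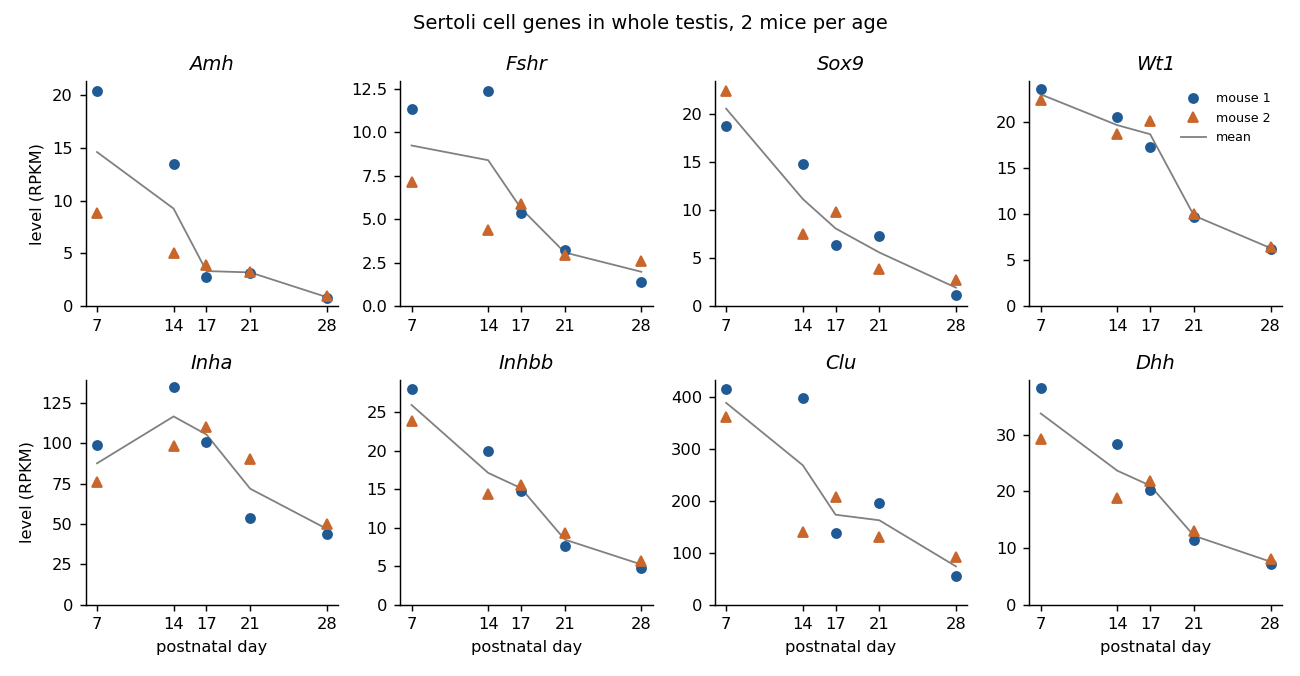
Level of each of the 8 Sertoli cell genes (RPKM, linear axes that start at 0) against postnatal day, with circles for mouse 1 and triangles for mouse 2 of each age and a line through the means. Amh, Sox9 and Clu are high at PND 7 and lowest at PND 28, whereas Inha is highest at PND 14, and PND 14 mouse 1 lies above mouse 2 in every panel.

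With all 10 mice, no gene of the set was called between consecutive ages. Between PND 7 and PND 14 edgeR called 18.9% of all genes. An unadjusted p under 0.05 in edgeR was reached, over all 10 mice, by 3 of the 8 and by 6253 of 16860 genes, a similar share. The median log2 fold change of the 8 was -0.65, and -1.03 without PND 14 mouse 1. Leaving that mouse out moved all 8 down. Amh went from -0.78 to -1.61, Clu from -0.66 to -1.54, Sox9 from -0.99 to -1.53 and Fshr from -0.25 to -1.14. Dhh went from -0.63 to -0.92, Inhbb from -0.71 to -0.93, Wt1 from -0.33 to -0.37 and Inha from 0.32 to 0.11. Between PND 14 and PND 17 edgeR called 0.0% of all genes, and 1 of the 8, Amh, had an unadjusted p under 0.05, as did 769 of 16860 genes. The median log2 fold change of that step was -0.23, with 7 of the 8 below 0. Without PND 14 mouse 1 it turned to 0.12, with 1 of the 8 below 0. Of all genes, edgeR called 10.3% between PND 17 and PND 21 and 7.66% between PND 21 and PND 28. The direction of every step but the last also turned with the scaling to other Sertoli cell genes that is described further on. The median log2 fold change from PND 7 to PND 14 was 0.11 on its level scale and -0.51 on its deviation scale. That from PND 14 to PND 17 was 0.05 and -0.29, and that from PND 17 to PND 21, -0.54 on TMM, was -0.71 and 0.22. DESeq2 also called 0 of the 8 in each of these 4 comparisons. The steps share mice, so they are not independent of each other.

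Amh encodes anti-Mullerian hormone, which makes the female ducts of the male fetus regress and marks immature Sertoli cells after birth. Its level was 20.4 and 8.86 RPKM in the PND 7 mice, 13.5 and 5.01 at PND 14, 2.79 and 3.86 at PND 17, 3.18 and 3.22 at PND 21, and 0.760 and 0.950 at PND 28. The PND 7 and PND 14 mice overlapped, all mice from PND 17 on lay below all of those, and both PND 28 mice lay lowest. The last values rest on 11 and 8 reads, against 315 and 104 at PND 7. Between PND 7 and PND 28 Amh fell by 3.78 on the log2 scale (SE 0.60, edgeR adjusted p = 0.000286), or 13.7-fold, and 8.31-fold without PND 7 mouse 1. From PND 14 to PND 17 its log2 fold change was -1.41 (SE 0.52, unadjusted p = 0.0210 in edgeR), which did not pass adjustment and was -0.60 (SE 0.54) without PND 14 mouse 1. From PND 17 to PND 21 the log2 fold change was 0.11 (SE 0.55), and from PND 21 to PND 28 it was -1.70 (SE 0.63, edgeR adjusted p = 0.128).

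Inha and Inhbb encode the alpha and beta B subunits that pair as inhibin B, the Sertoli cell hormone that lowers FSH release from the pituitary. Inha was at 99.3 and 76.0 RPKM at PND 7, 134.9 and 98.5 at PND 14, 100.9 and 110.1 at PND 17, 53.6 and 90.3 at PND 21, and 43.8 and 50.3 at PND 28. In RPKM its PND 28 mice lay below those of all other ages, while the PND 14 mice overlapped with those of PND 7 and of PND 17. In CPM on the TMM scale, PND 21 mouse 1 at 74.7 lay below both PND 28 mice, at 76.6 and 86.8. The log2 fold change of Inha from PND 7 to PND 28 was -0.56 (SE 0.30, edgeR adjusted p = 0.125), a direction that turns when the libraries are scaled to other Sertoli cell genes, as given further on. Inhbb was at 28.1 and 23.8 RPKM at PND 7, 19.9 and 14.3 at PND 14, 14.7 and 15.6 at PND 17, 7.59 and 9.36 at PND 21, and 4.72 and 5.75 at PND 28. Only the mice of PND 14 and PND 17 overlapped, and at each other step both older mice lay below both younger ones. Inhbb fell by 1.99 on the log2 scale from PND 7 to PND 28 (SE 0.25, edgeR adjusted p = 6.47e-05), or 3.97-fold.

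The partners of these hormones were taken from a list of 15 genes of AMH, inhibin and activin signalling. Between PND 7 and PND 28, 7 were called lower and 8 were not called, where edgeR called 23.4% of all genes lower and 55.6% in either direction, and their median log2 fold change was -1.02. On the scale of other Sertoli cell genes that is described further on, the median was 0.07, with 3 called higher (49.5% of all genes) and 2 lower (6.57%). Inhba encodes the beta A subunit of activin A and inhibin A. It had 78 and 161 reads at PND 7, 8 and 7 at PND 14, 9 and 4 at PND 17, 3 and 6 at PND 21 and 0 in both PND 28 mice. Set against a floor of 3 reads over both PND 28 mice, its mean of 14.7 CPM at PND 7 was at least 57.3-fold higher, and at least 30.4-fold higher without PND 7 mouse 2. Most of that difference was present by PND 14, with a log2 fold change of -4.00 from PND 7 (SE 0.68, edgeR adjusted p = 0.00280), which stayed at -4.00 when PND 14 mouse 1 was left out and came to -3.09 when PND 7 mouse 2 was. Smad3, an intracellular transducer of activin signals, went from 65.9 and 72.6 CPM to 6.27 and 7.15 and fell by 3.37 on the log2 scale (SE 0.30, edgeR adjusted p = 5.15e-06). Amhr2, the receptor of anti-Mullerian hormone, was looked at after its values were seen and stood at 118 and 124 CPM at PND 7, 204 and 146 at PND 14, and 135 and 124 at PND 28. Its log2 fold change from PND 7 to PND 28 was 0.10 (SE 0.22, edgeR adjusted p = 0.711), and -0.22 when library totals replaced the TMM scale. On the level and deviation scales of other Sertoli cell genes Amhr2 was called higher, by log2 fold changes of 1.21 (edgeR adjusted p = 0.00888) and 1.27 (edgeR adjusted p = 0.00100). The ligand Amh and its receptor thus had different courses in the same libraries of whole testis. The part of other cell types in the values of Amhr2 was not tested.

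Fshr encodes the receptor through which FSH acts on Sertoli cells, coupled to the formation of cyclic AMP. It was at 11.3 and 7.13 RPKM at PND 7, 12.4 and 4.39 at PND 14, 5.36 and 5.88 at PND 17, 3.21 and 2.96 at PND 21, and 1.36 and 2.59 at PND 28. The PND 14 mice lay on either side of the PND 7 mice, and both the PND 21 and the PND 28 mice lay below all younger mice. Fshr fell by 1.93 on the log2 scale from PND 7 to PND 28 (SE 0.50, edgeR adjusted p = 0.00621), or 3.80-fold. It lost its call, at -1.50, when PND 28 mouse 1 was left out.

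A list of 10 genes acting downstream of the receptor was less uniform. Between PND 7 and PND 28, 2 were called higher (32.2% of all genes), 6 lower (23.4%) and 2 neither, with a median log2 fold change of -1.22. On the scale of other Sertoli cell genes the median was -0.12, with 3 called higher (49.5% of all genes) and 7 not called. Crem, a cyclic AMP responsive transcription factor that is also highly expressed in spermatids, went from 11.9 and 8.73 CPM at PND 7 through 52.8 and 76.8 at PND 14 to 456 and 375 at PND 28. It rose by a log2 fold change of 5.32 (SE 0.31, edgeR adjusted p = 5.11e-07). Prkaca, a catalytic subunit of protein kinase A, had a log2 fold change of 1.02 (SE 0.25, edgeR adjusted p = 0.00399), which was 0.86 and not called without PND 28 mouse 1, 0.84 and not called without PND 7 mouse 2, and 0.70 and not called with library totals. Arrb2, an arrestin that binds activated receptors, and Prkar2b, a regulatory subunit of protein kinase A, were the most lowered, by log2 fold changes of -1.91 (SE 0.39) and -1.69 (SE 0.28). The summed CPM of 5 spermatocyte markers rose from 185 and 164 at PND 7 to 7006 and 6442 at PND 28. Ldhc alone gave 6132 and 5529 of the PND 28 sums. The part of these markers in the values of Crem and Prkaca was not tested.

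Sox9 and Wt1 encode transcription factors that set up and keep Sertoli cell identity. Sox9 was at 18.7 and 22.3 RPKM at PND 7, 14.8 and 7.45 at PND 14, 6.32 and 9.82 at PND 17, 7.26 and 3.89 at PND 21, and 1.17 and 2.67 at PND 28. The PND 7 mice lay above and the PND 28 mice below all others, and the PND 17 mice overlapped with those of PND 14 and of PND 21. Sox9 fell by 3.13 on the log2 scale from PND 7 to PND 28 (SE 0.46, edgeR adjusted p = 0.000166), or 8.76-fold, and 13.6-fold without PND 28 mouse 2. With single mice left out in turn, its log2 fold change ran from -3.77 to -2.61. Wt1 was at 23.5 and 22.4 RPKM at PND 7, 20.5 and 18.7 at PND 14, 17.2 and 20.04 at PND 17, 9.62 and 10.0 at PND 21, and 6.21 and 6.37 at PND 28. Its mice of an age lay close together, with PND 14 and PND 17 overlapping and each of the other steps separated. Wt1 fell by 1.54 on the log2 scale from PND 7 to PND 28 (SE 0.20, edgeR adjusted p = 8.23e-05), or 2.92-fold. Its change from PND 17 to PND 21, -0.80 on the log2 scale (SE 0.20), had an edgeR adjusted p of 0.0288 but was under 2-fold, and on the deviation scale of other Sertoli cell genes it was -0.02 (SE 0.22).

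Of 11 other transcription factors of Sertoli cells and the gonad, 6 were called lower from PND 7 to PND 28 and 5 were not called, against 23.4% of all genes called lower and 55.6% in either direction, with a median log2 fold change of -1.62. Sox8, a close relative of Sox9, went from 48.8 and 41.1 CPM at PND 7 to 9.81 and 11.1 at PND 28, a log2 fold change of -2.11 (SE 0.38, edgeR adjusted p = 0.000626). Gata4, a zinc finger factor of gonadal somatic cells, went from 110 and 101 CPM to 30.7 and 25.2, a log2 fold change of -1.92 (SE 0.23, edgeR adjusted p = 4.24e-05). On the scale of other Sertoli cell genes edgeR called 0 of the 11 in either direction (56.1% of all genes), with 3 at an unadjusted p under 0.05.

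Clu encodes clusterin, a secreted chaperone that is among the most abundant Sertoli cell products. It was at 416 and 363 RPKM at PND 7, 398 and 141 at PND 14, 139 and 209 at PND 17, 196 and 130 at PND 21, and 56.2 and 92.0 at PND 28. The ages from PND 14 to PND 21 overlapped, the PND 28 mice lay below all others, and PND 14 mouse 1 lay among the PND 7 mice. Clu fell by 2.07 on the log2 scale from PND 7 to PND 28 (SE 0.44, edgeR adjusted p = 0.00182), or 4.20-fold. Its log2 fold change from PND 7 to PND 14 was -0.66 (SE 0.42), and without PND 14 mouse 1 it was -1.54. Clu alone made up 0.141% and 0.122% of all counts at PND 7 and 0.0191% and 0.0311% at PND 28.

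Dhh encodes Desert hedgehog, a ligand that Sertoli cells send to peritubular myoid and Leydig cells, where it binds the receptor Ptch1 and so frees Smo to activate the Gli factors. Dhh was at 38.2 and 29.3 RPKM at PND 7, 28.4 and 18.9 at PND 14, 20.3 and 21.8 at PND 17, 11.4 and 12.9 at PND 21, and 7.19 and 8.02 at PND 28. The mice of PND 14 and PND 17 overlapped, and the other steps were separated. Dhh fell by 1.84 on the log2 scale from PND 7 to PND 28 (SE 0.26, edgeR adjusted p = 0.000141), or 3.57-fold.

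Of 11 genes of the hedgehog response, 9 were called lower (23.4% of all genes), 1 higher (32.2%) and 1 neither from PND 7 to PND 28, with a median log2 fold change of -2.78. Limma on RPKM gave the same counts under the same rule, and 1 lower and 0 higher when the means also had to differ by 10 RPKM at an unadjusted p of at most 0.01. Gli1, a transcription factor and direct target of the pathway, was at 25.1 and 39.9 CPM at PND 7, 10.5 and 7.10 at PND 14, and 1.77 and 1.85 at PND 28, a log2 fold change of -4.16 over the whole interval (SE 0.49, edgeR adjusted p = 3.34e-05). Hhip, a membrane protein that binds and holds back hedgehog ligands and is itself a target, went from 16.9 and 29.4 CPM to 1.23 and 1.85, a log2 fold change of -3.94 (SE 0.51, edgeR adjusted p = 7.29e-05). Ptch1, named after its values were seen because it is the receptor of Dhh, went from 148 and 167 CPM to 11.2 and 21.7, a log2 fold change of -3.28 (SE 0.39, edgeR adjusted p = 3.94e-05). Sufu, which holds Gli factors in the cytoplasm, was the gene that rose, from 15.6 and 10.7 CPM to 54.8 and 55.2, by a log2 fold change of 2.05 (SE 0.46, edgeR adjusted p = 0.00252).

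Part of this response was already lower at PND 14, when 5 of the 11 genes were called lower (5.43% of all genes) and 6 were not called, and the log2 fold change of Dhh itself was -0.63 (SE 0.25, edgeR adjusted p = 0.0928), -0.92 without PND 14 mouse 1, and 0.12 on the level scale of other Sertoli cell genes. The count was 5 without PND 14 mouse 1, 1 without PND 14 mouse 2 and 1 without PND 7 mouse 2. It was 1 on the level scale (0.836% of all genes called lower) and 4 on the deviation scale (3.21%). On either of these scales, 6 of the 11 hedgehog response genes were still called lower from PND 7 to PND 28 and 1 was called higher. Of all genes, 6.57% were called lower there on the level scale and 6.8% on the deviation scale. The level scale called 49.5% of all genes higher. The summed CPM of 5 peritubular myoid markers went from 413 and 517 at PND 7 to 144 and 190 at PND 28, and that of 7 Leydig cell markers from 260 and 280 to 1200 and 897. The part of those cell types in the hedgehog values was not tested.

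**Figure D2:**
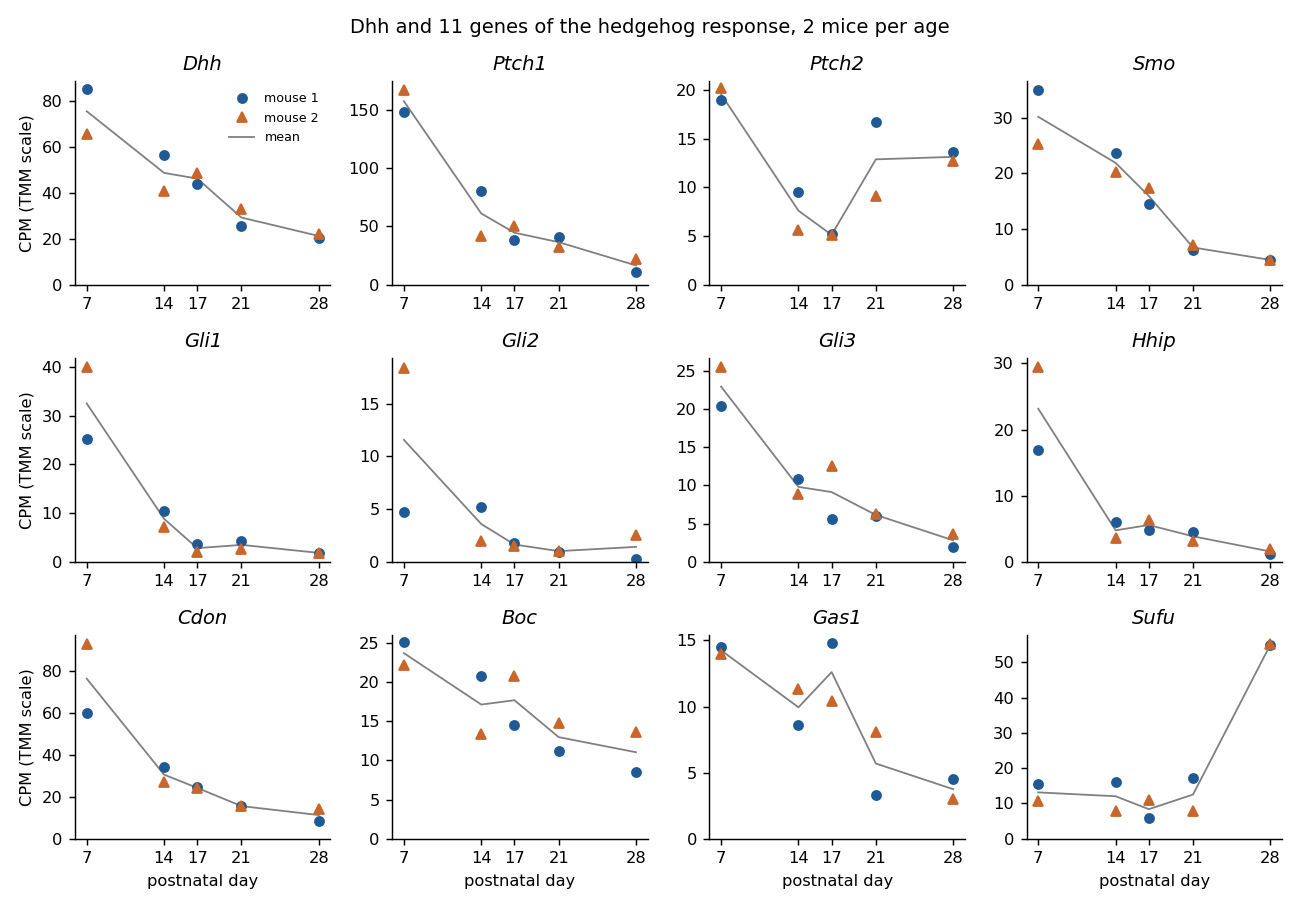
Dhh and 11 genes of the hedgehog response in CPM on the TMM scale (linear axes that start at 0) against postnatal day, with circles for mouse 1, triangles for mouse 2 and a line through the means. Gli1, Hhip, Cdon and Ptch1 are lower at PND 14 than at PND 7 in both mice and lower still at PND 28, while Sufu is at 54.8 and 55.2 CPM at PND 28, above every younger mouse.

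Ratios within the set remove whatever all 8 genes share in a mouse, such as a smaller share of Sertoli cell RNA. Each gene was divided, per length, by the geometric mean of the other 7 in the same mouse, and the log2 ratios at PND 7 and PND 28 were compared without a test, since 2 mice against 2 cannot reach 0.05 in an exact permutation test. A ratio shows that genes changed unequally and not which of them changed. Inha had higher ratios at later ages, with 1.58 and 1.52 on the log2 scale at PND 7, 2.30 and 2.79 at PND 14, and 3.46 and 3.14 at PND 28, a difference of 1.76 (SE 0.35) between the ends. Amh had the opposite course, with -1.06 and -1.96 at PND 7, -2.96 and -2.75 at PND 17, and -3.15 and -3.31 at PND 28, a difference of -1.72 (SE 0.35). Sox9 went from -1.16 and -0.48 to -2.49 and -1.68, a difference of -1.27 (SE 0.47). For all 3 the PND 7 and PND 28 mice did not overlap.

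The other 5 genes kept closer to the set. The difference in log2 ratio between PND 28 and PND 7 was 0.62 for Wt1 (SE 0.33), 0.30 for Dhh (SE 0.19), 0.21 for Fshr (SE 0.30), 0.12 for Inhbb (SE 0.22) and -0.02 for Clu (SE 0.33). Set against the median of 17 other Sertoli cell genes in place of the set, the differences were -0.054 for Wt1, -0.33 for Dhh, -0.41 for Fshr, -0.49 for Inhbb and -0.62 for Clu, so those of Wt1, Dhh, Fshr and Inhbb turned. The mice of both ages overlapped for Fshr, Inhbb and Clu. Without PND 14 mouse 1 the difference between PND 14 and PND 7 was 1.24 in place of 1.00 for Inha, -0.60 in place of -0.29 for Amh and -0.66 in place of -0.30 for Clu.

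**Figure D3:**
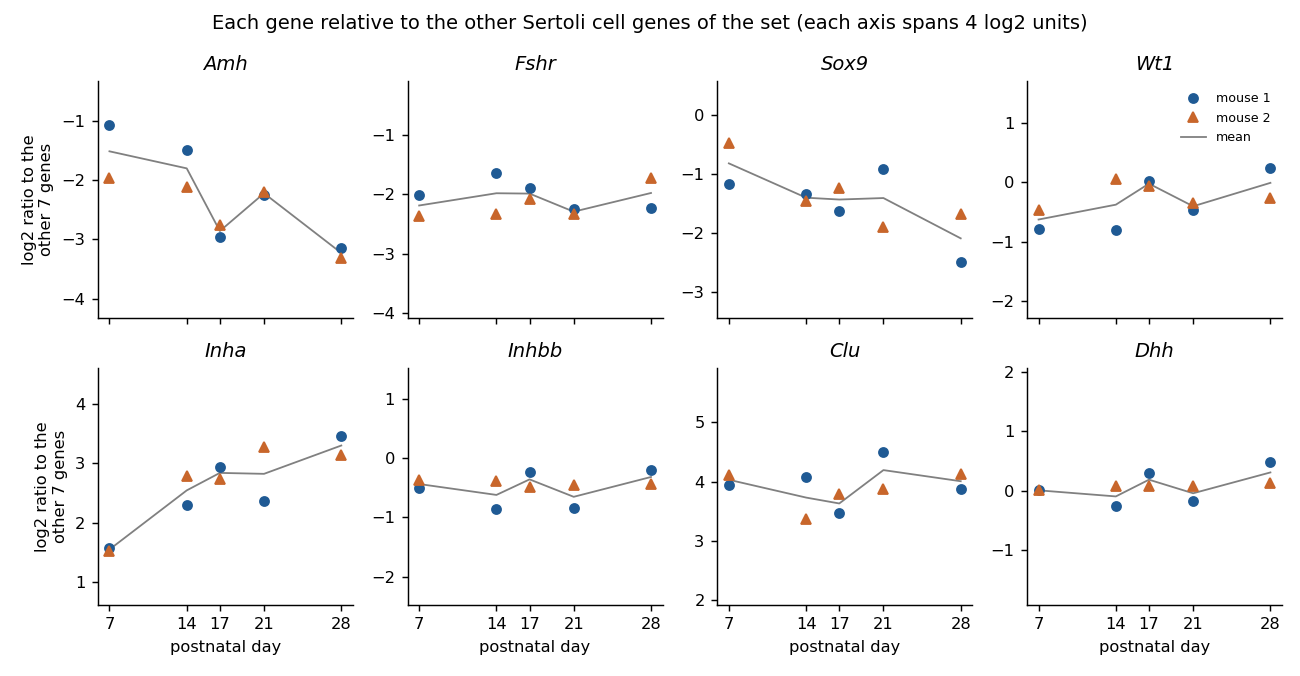
Log2 ratio of each gene to the geometric mean of the other 7 (per length) against postnatal day, with circles for mouse 1, triangles for mouse 2 and a line through the means, each axis spanning 4 log2 units. Inha lies at 1.58 and 1.52 at PND 7 and at 3.46 and 3.14 at PND 28, Amh and Sox9 lie lower at PND 28 than at PND 7, and the remaining genes stay nearer to a level line.

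Pairs of genes show the same in single ratios. Inha stood at 3.52 and 3.14 times Inhbb per length at PND 7, at 6.77 and 6.86 times at PND 14, 6.85 and 7.06 times at PND 17, 7.04 and 9.63 times at PND 21, and 9.25 and 8.72 times at PND 28. The PND 7 mice thus lay below all mice of the later ages in the balance of the inhibin B subunits, and PND 14 mouse 1 lay next to PND 14 mouse 2. Amh stood at 0.202 and 0.121 times Inha at PND 7 and at 0.0181 and 0.0200 times at PND 28. Sox9 stood at 0.799 and 0.989 times Wt1 at PND 7 and at 0.190 and 0.422 times at PND 28, with 0.757 in PND 21 mouse 1 between. Amh over Sox9 was 1.06 and 0.408 at PND 7 and 0.672 and 0.374 at PND 28, so those ages overlapped. Dhh over Wt1 ran between 1.01 and 1.62 in all 10 mice. Clu over Wt1 differed within an age, at 19.4 and 7.52 in the PND 14 mice.

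Over the 10 mice, log2 CPM of Inhbb and Dhh had a Pearson correlation of 0.996, the highest in the set, and Inha had the lowest values, from 0.464 with Clu to 0.725 with Wt1. These correlations are descriptions over mice of 5 ages that share depth and scaling within a library. Among genes outside the set with a mean of at least 10 CPM, those most like Amh were Dcakd (r = 0.980), Cnnm3 and Lphn1. Those most like Sox9 were Atrnl1 (r = 0.992), Dennd2c and Akap13, those most like Clu were Ttf2 (r = 0.987), Amotl2 and Patl1, and those most like Inhbb were Axl (r = 0.989), Mex3a and Trpm7.

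A list of 17 other Sertoli cell genes served as a second reference. From PND 7 to PND 28, 11 of the 17 were called lower (23.4% of all genes), 2 higher (32.2%) and 4 neither, with a median log2 fold change of -1.39. Gdnf, a growth factor that maintains spermatogonial stem cells, and Rhox8, a homeobox gene, were the most lowered, by log2 fold changes of -3.36 (SE 0.88) and -2.69 (SE 0.66). Without PND 28 mouse 2, in which Gdnf had 0 reads against 16 in mouse 1, they were -2.53 and -3.80, and without PND 28 mouse 1 Rhox8 was at -1.94 and not called. Tsx, a testis-specific X-linked gene, and Trf, which encodes the iron carrier transferrin, rose by log2 fold changes of 4.09 (SE 0.82) and 1.37 (SE 0.32). Tsx had 12 and 1 reads at PND 7, and leaving out PND 7 mouse 1 or mouse 2 moved its change to 6.37 or 3.35.

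When each library was scaled to the median level of these 17 genes, Amh and Sox9 were the 2 genes of the set called lower from PND 7 to PND 28, where 6.57% of all genes were called lower and 56.1% in either direction. Amh had a log2 fold change of -2.65 (SE 0.60, edgeR adjusted p = 0.00133) and Sox9 one of -2.07 (SE 0.50, edgeR adjusted p = 0.00231). Inhbb followed at -0.89 (SE 0.33, edgeR adjusted p = 0.0298), short of 2-fold. Clu (-0.999), Fshr (-0.83), Dhh (-0.73) and Wt1 (-0.44) were not called. Inha had a log2 fold change of 0.54 (SE 0.33, edgeR adjusted p = 0.170), above 0 where the TMM scale put it below.

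The median level rests on the middle gene of the list and moved between mice of an age, at -0.48 and 0.19 on the log2 scale relative to TMM in the PND 21 mice. The median log2 fold change of all genes from PND 7 to PND 28 shifted by 1.10 against TMM. A second scale took the median over the 17 genes of each gene's deviation from its own mean, chosen after the data were seen, and lay at -0.58 and -0.25 in the same mice. On it the shift was 1.16 and 6.8% of all genes were called lower, and Amh (-2.64, SE 0.59, edgeR adjusted p = 0.00224) and Sox9 (-1.95, SE 0.47, edgeR adjusted p = 0.00346) were again the 2 genes called, with Inha at 0.60 (SE 0.29, edgeR adjusted p = 0.0930). From PND 7 to PND 14 the first of these scales called Inha higher, by a log2 fold change of 1.08 (edgeR adjusted p = 0.0204, with 33.7% of all genes called). The second did not call it (18.6% of all genes called), nor did the first without any 1 of the 4 mice of those ages.

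**Figure D4:**
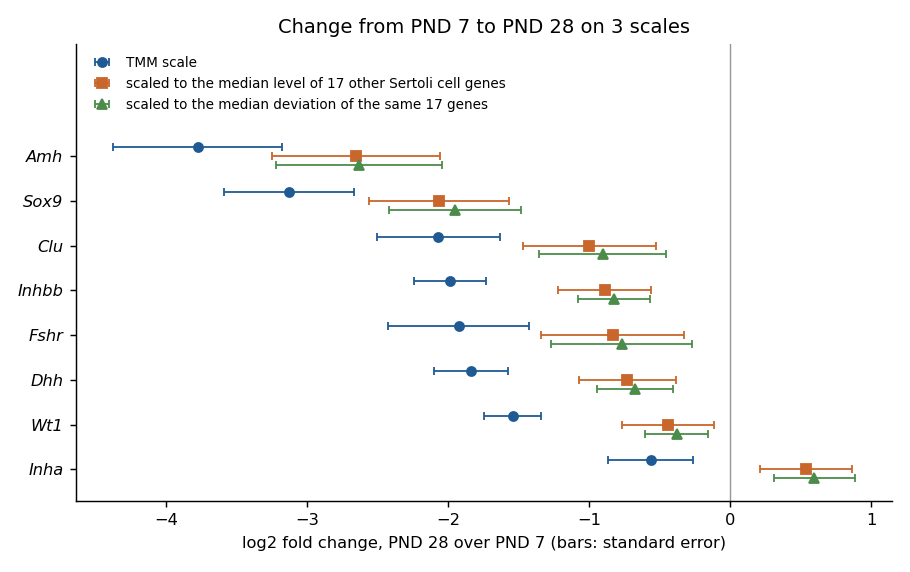
Log2 fold change of each gene from PND 7 to PND 28 (x axis) with its standard error, on the TMM scale (circles), scaled to the median level of 17 other Sertoli cell genes (squares) and scaled to the median deviation of the same genes (triangles). Amh and Sox9 stay furthest below 0 on all 3 scales, and Inha is at -0.56, 0.54 and 0.60.

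By their medians, markers of peritubular myoid cells, endothelium and spermatogonia were lower at PND 28 as well, and those of macrophages and Leydig cells were not. The median log2 fold change from PND 7 to PND 28 was -1.43 over 5 peritubular myoid markers, of which 3 were called lower, -1.53 over 4 endothelial markers, of which 3 were called lower, and -1.58 over 5 spermatogonial markers, of which 4 were called lower. The median over 4 macrophage markers was 0.26. Of 7 Leydig cell markers 4 were called higher and 3 were not called, with a median of 2.14, among them Hsd3b6, which had 0 reads in both PND 7 mice. All 5 spermatocyte and all 5 spermatid markers were called higher. Of all genes tested in this comparison, 23.4% were called lower and 32.2% higher. None of these lists was set against the Sertoli cell genes by a test.

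**Figure D5:**
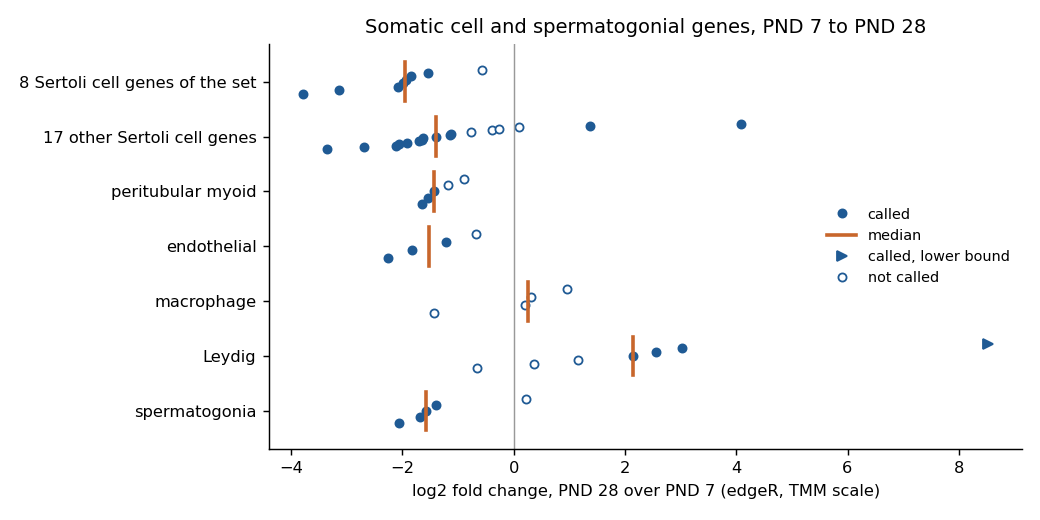
Log2 fold change from PND 7 to PND 28 (edgeR, TMM scale) of single genes by cell type list, with filled circles for called genes, open circles for genes not called and an orange bar for the median of the list. The triangle is Hsd3b6 at the lower bound set by 3 reads over the PND 7 mice. The medians of the myoid, endothelial and spermatogonial lists lie between -1.43 and -1.58, and that of the 8 Sertoli cell genes at -1.96.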

How the data were processed

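RNA of whole testes from 10 mice was depleted of ribosomal RNA and sequenced on the SOLiD platform. According to the study's methods, the authors mapped the reads against the mm9 build using LifeScope, removed reads of ribosomal RNA, tRNA and repeats, and counted the rest on the exons of Ensembl genes. The deposited tables hold this raw read count for each gene and library, and the RPKM values that the authors made from it per exon length and library total. Whether strand was used in counting is not given in the sources used here. No exon of another annotated gene overlapped those of the 8 genes. The gene names and coordinates of GENCODE M1 matched the deposited coordinates for all 37310 genes that had a symbol, and the 365 genes without one had no counts.

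For the PND 7 mice, counts of both barcodes were added and RPKM values averaged. Counts were tested with edgeR 4.0.16 in R 4.3.3 (TMM, filterByExpr, quasi-likelihood F test) over all 10 mice, with the common dispersion at 0.0726, and SE was taken as the log2 fold change divided by the square root of F. A call needed both a 2-fold change and an adjusted p (Benjamini-Hochberg) under 0.05. Ratios and correlations used log2 values with 0.5 added, per length for ratios. Rhox5 was planned as an eighth reference gene of the ratios and could not be used. Alternatives were DESeq2 1.42.0, limma 3.58.1 on log2(RPKM + 1) at the study's criteria and at the same call rule, other scalings and filters, a replicate block and each mouse left out. The edgeR script was tested on simulated data.

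The members and lists were chosen with earlier results of these data known. Genes named beside the members were from each pathway list the 2 called genes that rose most and the 2 that fell most from PND 7 to PND 28, and the 3 genes with the highest Pearson correlation to each of the 4 members of widest range. The motifs were chosen after the values were seen. Depth sets the precision of low genes, and with 2 mice per age an error covers only the mice sampled. Whether mice shared a litter or a collection day is not given in the sources used here.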

Additional observations from a re-analysis of the deposited data

How the results depend on the processing

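From PND 7 to PND 28 edgeR called 7 of the 8 genes lower with RLE factors, library totals, either filter on low counts, the 4 mice alone and adjusted p alone, as did DESeq2 and, at the same call rule (added after the data were seen), limma on RPKM. Limma at the study's criteria (unadjusted p of at most 0.01, 2-fold and 10 RPKM between the means) called 6, without Fshr. Leaving out single mice gave 6 to 7. The count was 2 on either scale of other Sertoli cell genes, where the log2 fold change of Inha turned to 0.54 and 0.60, and the deviation scale, chosen after the data were seen, also gave 2 genes that differed over the 5 ages, where the level scale gave 5, Inha among them. Between PND 7 and PND 14 the level scale called 1 gene and turned Fshr to 0.50, Wt1 to 0.42, Inhbb to 0.049, Clu to 0.090 and Dhh to 0.12, and the deviation scale called 0. With single mice left out, 0 to 1 genes were called on TMM and 0 to 1 on the level scale, and the log2 fold change of Fshr ran from -1.14 to 0.26, above 0 also without PND 7 mouse 1 (0.18). Adjusted p alone called 1 gene (Wt1) between PND 17 and PND 21. Between PND 21 and PND 28 no filter on low counts called 2 (Amh, Sox9) and the 4 mice alone 2 (Amh, Clu). With the 17 other Sertoli cell genes as reference, the PND 28 minus PND 7 difference in log2 ratio was -0.054 for Wt1 and -0.33 for Dhh, both above 0 within the set. The cause of these differences was not tested.

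Counts over all genes moved more. For PND 7 to PND 14 (3191) they were 978 with limma at the study's criteria (2165 at the same rule as edgeR), 2034 with the 4 mice alone, 5686 on the level scale and 2002 to 4409 with single mice left out. For PND 14 to PND 17 (0) they were 1 with DESeq2, 4 with limma at the study's criteria, 6 at the same rule, 357 without a filter and 0 to 175 with mice left out. For PND 17 to PND 21 (1743) they were 772 with limma at the study's criteria (1222), 964 on the level scale, 4946 on the deviation scale and 266 to 2188 with mice left out. For PND 21 to PND 28 (1292) they were 845 with limma at the study's criteria (1337), 1970 without a filter, 1969 on the deviation scale and 312 to 1704 with mice left out. For PND 7 to PND 28 (9378) limma gave 3842 at the study's criteria and 8420 at the same rule. Leaving out 1 mouse leaves 1 at that age, whose spread is then assumed to be that of the other ages.

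Mouse numbers are shared between ages, but deviations of same-numbered mice correlated between -0.17 and 0.34, so the numbers were not taken as pairs. A replicate block called 7 of the 8 genes from PND 7 to PND 28 and 9228 genes in all, and changed no call in the set. Against TMM, the median over all genes from PND 7 to PND 28 moved by -0.32 on the log2 scale with library totals and by 0.16 with RLE factors. Depth limits Amh most, with 11 and 8 reads at PND 28.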
